A study of Homo sapiens with 4 samples.

Results

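Distal chromosome 1p contacts are the SMC1-bound loops whose first anchor starts below 40 Mb on human chromosome 1, in hg19 coordinates. The authors' deposited table of high-confidence loops held 610 such loops of 22680 in all. The bound was chosen because an earlier look at these libraries had shown more contacts there in STAG2-null cells, so the genotype difference over the whole region is described below and not tested. The libraries were made by HiChIP, which ligates neighbouring DNA ends inside the nucleus and keeps those bound by a chosen protein, here SMC1. The cells were A673, an Ewing sarcoma line. There were 2 STAG2-null libraries, from Cas9-edited clones that each grew out of 1 cell, and 2 wild-type libraries of the same line. Clonal origin and genotype cannot be told apart in this design, and DNA copy number was not measured here. Whether libraries of a group came from separate cultures is not said in the labels, so any p-value here rests on a spread between libraries that may be technical. Contacts of SMC1 carry no measure of the STAG2 transcript, so the loss of STAG2 was not checked.

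SMC1 is a core subunit of cohesin, the ring-shaped complex that extrudes chromatin loops and halts at sites bound by CTCF. STAG2 is a subunit that binds the ring in place of its paralogue STAG1, and its gene is often mutated in Ewing sarcoma. The short arm of chromosome 1 is rich in genes and carries, among others, the receptor tyrosine kinase gene EPHA2 and the corepressor gene RERE. In Ewing sarcoma the fusion protein EWS-FLI1 binds DNA through the ETS domain of FLI1, which recognises a GGAA core.

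The promoters of SEPN1, STK40 and EPHA2 are shown because the loops at them had the smallest adjusted p among the region's loops with a named gene in the authors' deposited table. Each line runs 5′ to 3′ on the gene's strand, from 250 bases before to 50 bases after the start given by RefSeq in GRCh38.p14, and is not in the build of the loops. Capitals mark CGGAAG or its reverse complement CTTCCG, an ETS-type motif searched on both strands. SEPN1, now named SELENON, lies at chr1:25799943-25800242 on the + strand, STK40 at chr1:36385875-36386174 on the - strand and EPHA2 at chr1:16156020-16156319 on the - strand.
SEPN1: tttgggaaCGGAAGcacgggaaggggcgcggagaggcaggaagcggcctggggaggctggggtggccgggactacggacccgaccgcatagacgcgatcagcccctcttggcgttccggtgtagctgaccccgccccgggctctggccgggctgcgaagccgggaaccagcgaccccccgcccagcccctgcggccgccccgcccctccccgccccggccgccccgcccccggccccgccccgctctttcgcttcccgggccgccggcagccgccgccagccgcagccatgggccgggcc
STK40: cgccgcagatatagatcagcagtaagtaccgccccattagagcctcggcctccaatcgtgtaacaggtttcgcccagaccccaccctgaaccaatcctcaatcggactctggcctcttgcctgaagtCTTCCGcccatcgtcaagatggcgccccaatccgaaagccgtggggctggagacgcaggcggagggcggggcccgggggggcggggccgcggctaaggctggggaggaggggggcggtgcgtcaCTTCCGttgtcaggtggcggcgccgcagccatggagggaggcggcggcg
EPHA2: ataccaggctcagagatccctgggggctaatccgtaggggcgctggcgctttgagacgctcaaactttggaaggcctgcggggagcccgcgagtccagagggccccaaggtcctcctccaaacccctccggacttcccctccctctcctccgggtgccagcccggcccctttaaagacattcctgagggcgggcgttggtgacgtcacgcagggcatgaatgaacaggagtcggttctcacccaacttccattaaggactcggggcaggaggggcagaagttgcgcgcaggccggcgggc
The STK40 window held 2 matches, the SEPN1 window held 1 and the EPHA2 window held 0. Among 35116 RefSeq promoter windows of the same length, 19.5% held the motif. A match describes letters only.

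A contact is counted here as a paired-end tag (PET), and a share is the PETs of a stretch as a percentage of all PETs of that library. The libraries held 682724 and 698002 PETs in STAG2-null 1 and 2, and 661881 and 765017 PETs in wild-type 1 and 2. Below 40 Mb there were 19660 and 20322 PETs in the STAG2-null libraries, against 15133 and 17344 PETs in the wild-type libraries, spread over 28617 anchor pairs. The 610 loops took 4199 and 4554 of these PETs in STAG2-null cells, against 3294 and 3523 in wild-type cells. A loop of the region held a median of 19 PETs over the 4 libraries, with a range of 8 to 136. Its median length between anchor midpoints was 22.2 kb, with a range of 5.02 to 790 kb. Loops under 20 kb made up 46.2% of the region's loops and 44.6% of all loops in the table. The loops were unevenly placed, with 146 between 16 and 18 Mb, 97 between 38 and 40 Mb, 1 between 34 and 36 Mb and 0 between 14 and 16 Mb.

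Distal 1p took a larger share of contacts in STAG2-null cells, while the neighbouring and remaining stretches of chromosome 1 took almost the same share in both genotypes. Below 40 Mb lay 2.88% and 2.91% of PETs in the STAG2-null libraries, against 2.29% and 2.27% in the wild-type libraries. Both STAG2-null libraries were above both wild-type libraries. The means were 2.90% ± 0.022 in STAG2-null and 2.28% ± 0.014 in wild-type (SD, n = 2 each), a 1.27-fold difference or 0.35 on the log2 scale. The 4 ratios of a single STAG2-null to a single wild-type library ran from 0.33 to 0.36 in log2, and the 95% interval for counting error from 0.33 to 0.37. PETs of a library are not known to be independent molecules, so such intervals cover counting error only. From 40 to 60 Mb the shares were 1.35% ± 0.013 in STAG2-null and 1.33% ± 0.013 in wild-type, a log2 ratio of 0.01. All of chromosome 1 beyond the bound took 9.45% ± 0.076 in STAG2-null and 9.41% ± 0.013 in wild-type, a log2 ratio of 0.007. With 2 libraries against 2, an exact two-sided permutation test cannot give a p below 0.333.

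**Figure D1:**
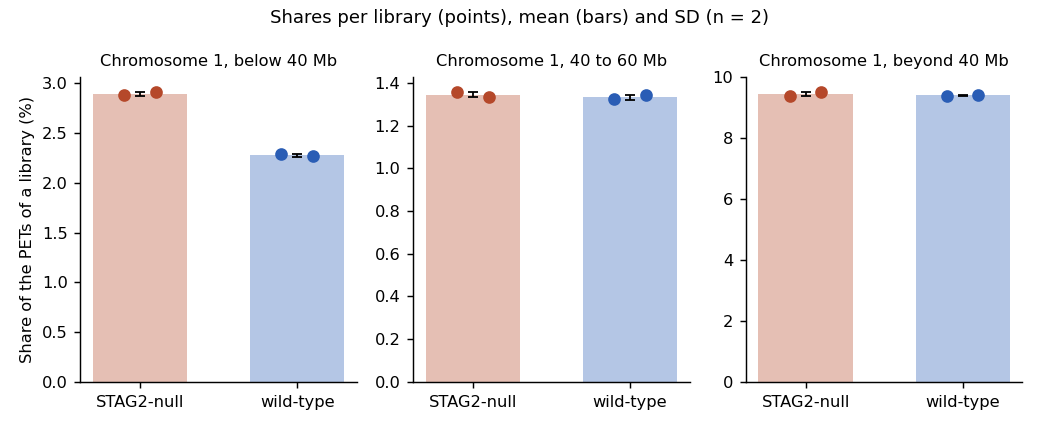
Share of the PETs of each library, in percent, with points for single libraries, bars for the mean and error bars for the SD (n = 2), STAG2-null on the left of each panel and wild-type on the right. Below 40 Mb the STAG2-null mean was 2.90% and the wild-type mean 2.28%, whereas from 40 to 60 Mb the means were 1.35% and 1.33%. The panels have separate vertical axes that start at 0.

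In 2 Mb steps the excess was present throughout. All 20 of the 2 Mb steps below 40 Mb had both STAG2-null libraries above both wild-type libraries, against a background of 38.2% of 958 such windows of the genome. Because the genotype contrast chose the region, nothing is read from that count. The log2 ratios of the steps ran from 0.07 to 0.58 with a median of 0.33, and the 95% counting interval lay above 0 in 18 steps.

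From the chromosome's end, the log2 ratio was 0.26 at 0 to 2 Mb, 0.07 at 2 to 4 Mb, 0.22 at 4 to 6 Mb and 0.28 at 6 to 8 Mb. The step from 2 to 4 Mb, the smallest, held 0.0710% and 0.0699% of PETs in the STAG2-null libraries, against 0.0684% and 0.0655% in the wild-type libraries. The groups did not overlap there, but the counting interval of -0.05 to 0.21 included 0.

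The highest step came next, at 8 to 10 Mb, where RERE lies. It held 0.191% and 0.208% of PETs in the STAG2-null libraries, against 0.133% and 0.133% in the wild-type libraries, a log2 ratio of 0.58 with a counting interval of 0.50 to 0.67. The ratio then was 0.34 at 10 to 12 Mb and 0.48 at 12 to 14 Mb, a step with only 685 PETs. It was 0.23 at 14 to 16 Mb, 0.28 at 16 to 18 Mb and 0.37 at 18 to 20 Mb. In the second 20 Mb of the region, 8 of the 10 steps lay between 0.27 and 0.42, in order 0.27, 0.36, 0.40, 0.41, 0.42, then 0.42 at 32 to 34 Mb, 0.32 at 36 to 38 Mb and 0.40 at 38 to 40 Mb. The steps at 30 to 32 Mb and 34 to 36 Mb were lower, at 0.23 and 0.19, the second with 744 PETs.

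The SD of the 20 log2 ratios of genotype means was 0.115. Ratios of single libraries of 1 genotype, which average over no libraries, had an SD of 0.104 for STAG2-null 1 over STAG2-null 2 and of 0.087 for wild-type 1 over wild-type 2.

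Past the bound the ratio fell away. At 40 to 42 Mb the shares were 0.0948% and 0.104% in the STAG2-null libraries, against 0.0837% and 0.0877% in the wild-type libraries, a log2 ratio of 0.22 with no overlap. The 9 steps from 42 to 60 Mb ran from -0.19 to 0.15 with a median of -0.02. Of these 9, 4 had both STAG2-null libraries higher, 4 had both lower and 1 overlapped. The lowest was 48 to 50 Mb, with 0.0557% and 0.0514% in STAG2-null cells against 0.0607% and 0.0616% in wild-type cells. The highest was 58 to 60 Mb, with 0.134% and 0.139% in STAG2-null cells against 0.123% and 0.123% in wild-type cells.

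**Figure D2:**
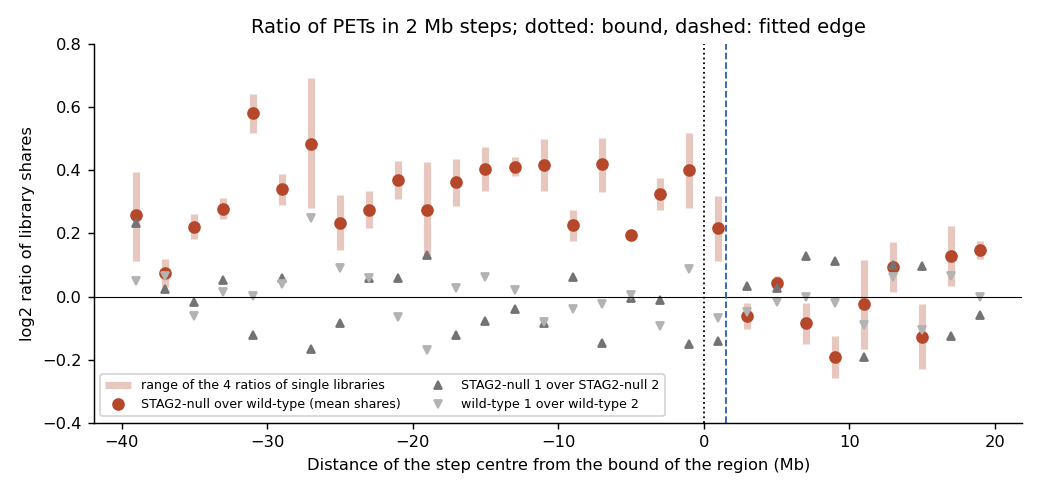
Log2 ratio of library shares (vertical axis) in 2 Mb steps against the distance of the step from the 40 Mb bound in Mb (horizontal axis). Points give STAG2-null over wild-type, pale bars the range of the 4 single-library ratios, and grey triangles the ratios within each genotype. All 20 steps before the bound lay above 0, from 0.07 to 0.58, and the 9 steps from 42 Mb on lay between -0.19 and 0.15.

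The edge of the excess lay a little beyond the 40 Mb bound. In 0.5 Mb steps from 20 to 60 Mb, the division into 2 stretches with the highest binomial likelihood fell at 41.5 Mb, with a log2 ratio of 0.37 before it and -0.002 after it. It fell at 41 Mb for STAG2-null 1 against either wild-type library and at 41.5 Mb for STAG2-null 2 against either. The same search within a genotype placed its division at 42.5 Mb for the STAG2-null pair and at 23.5 Mb for the wild-type pair. The drop across those divisions was -0.12 and -0.15, in log2, whereas it was 0.31 to 0.43 between single libraries of different genotype. Summed over the searched range, STAG2-null 2 was the higher of its pair before 42.5 Mb and the lower after it. Single steps did not all follow: STAG2-null 1 was higher at 20 to 22 Mb, and STAG2-null 2 at 50 to 52 Mb.

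Single 0.5 Mb steps showed where the ratio ended. It was 0.64 at 39.5 to 40 Mb, 0.27 at 40 to 40.5 Mb and 0.50 at 40.5 to 41 Mb, with the groups apart in each. It was 0.20 at 41 to 41.5 Mb, on 253 PETs, where the groups overlapped. From 41.5 to 42 Mb it was -0.01, again with overlap, and from 42 to 42.5 Mb it was -0.20, with both STAG2-null libraries below both wild-type libraries. Inside the region the steps from 37 to 37.5 Mb and 37.5 to 38 Mb had ratios of -0.08 and -0.04, on 63 and 312 PETs and with overlap.

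Contacts that spanned a position changed over the same interval. Across 41 Mb, pairs with an anchor on each side held 61 and 70 PETs in the STAG2-null libraries, against 41 and 49 PETs in the wild-type libraries, a log2 ratio of shares of 0.59. Across 42 Mb such pairs held 96 and 102 PETs in STAG2-null cells, against 104 and 124 PETs in wild-type cells, a log2 ratio of -0.15. The shares did not overlap at either position. The counting interval was 0.19 to 0.99 across 41 Mb and, including 0, -0.44 to 0.12 across 42 Mb. Pairs within the 2 Mb after 41 Mb had a log2 ratio of -0.16.

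**Figure D3:**
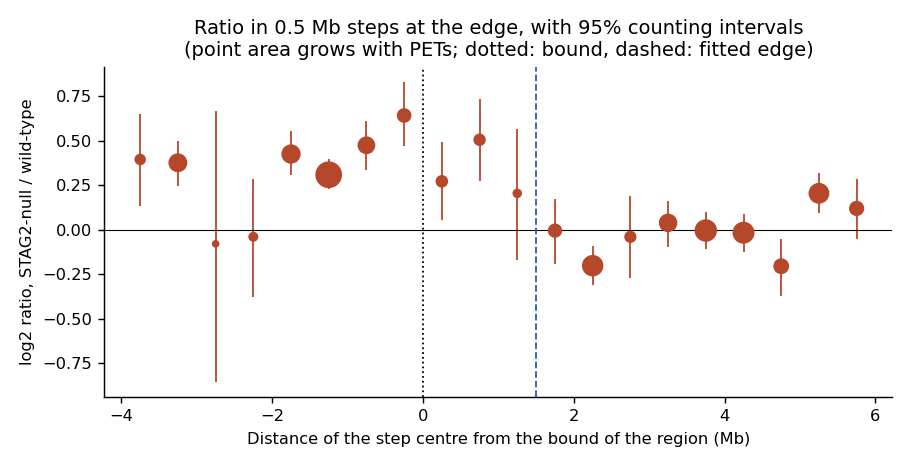
Log2 ratio of STAG2-null over wild-type shares (vertical axis) in 0.5 Mb steps around the edge, against distance from the 40 Mb bound in Mb (horizontal axis). Bars are 95% counting intervals, point area grows with PETs, the dotted line is the bound and the dashed line the fitted edge at 41.5 Mb. Steps up to 41 Mb lay mostly above 0.2, apart from the 2 thin steps at 37 to 38 Mb, and the step at 42 to 42.5 Mb was at -0.20.

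The excess appeared at every length of pair examined. The reference was all pairs of the same length in the genome, distal 1p included. Against it, the log2 ratio of distal 1p was 0.34 for pairs of 5 to 20 kb, 0.38 for 20 to 50 kb and 0.38 for 50 to 100 kb. It was 0.35 for 100 to 200 kb, 0.36 for 200 to 500 kb and 0.29 for 500 to 2000 kb. From 40 to 60 Mb, pairs of 500 to 2000 kb had 0.13 against the same reference, whereas the shorter classes had -0.04 to 0.01. Pairs that rested on 1 PET had 0.32, and pairs with at least 40 PETs had 0.38, against all pairs of the same count in the genome. Sparse pairs, whose PETs summed to 4 or fewer, had log2 ratios of 0.28, 0.28, 0.39 and 0.35 in the 4 windows of 10 Mb below the bound. In the windows from 40 to 50 and 50 to 60 Mb they had 0.02 and 0.08.

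Loops of the region were mostly higher in STAG2-null cells when scaled by library. Of the 610 loops, 197 (32.3%) had both STAG2-null shares above both wild-type shares, against 20.6% of all loops in the table, and 41 (6.72%) had both below, against 18.1%. At least 20 PETs were required for a fit across all 11872 pairs of the genome with that many, which kept 303 of the 610 loops and left out 307. Among the 303, the median log2 change was 0.32, against -0.04 among all loops tested, and 217 (71.6%) were above 0, against 49.2% of all. With library totals and no TMM factor, both medians moved up together, to 0.42 and 0.05. In the quasi-likelihood test of edgeR, after Benjamini-Hochberg adjustment, 0 of the 303 passed an adjusted p of 0.05, against 0.194% of all loops. At an unadjusted p under 0.05, 35 were higher, where 4.84% of all loops were, and 1 was lower, where 4.75% were. DESeq2 also called 0, with 5 loops above 0 and 0 below at an unadjusted p under 0.05. Over all 11872 loops it had 39 above and 64 below at that limit. Fits without 1 library leave 1 library in a group, so nothing is read from their calls. As the contrast chose the region, these counts are a description.

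Scaling each loop by the sparse pairs of its own 10 Mb window asked whether it departed from the excess around it. On this scale the median of the 303 loops was -0.03, against -0.002 for all loops. Per 10 Mb window the library-scaled medians were 0.53, 0.25, 0.39 and 0.18 below the bound, beside the sparse-pair ratios given above. In the same edgeR test with Benjamini-Hochberg adjustment, 0 of the 303 loops were called as departing from their window, against 0.0421% of all loops tested. At an unadjusted p under 0.05, 8 were higher than their window and 11 lower, or 6.27% of the 303, against 7.27% of all loops (3.65% higher and 3.62% lower). DESeq2 called 0, with 0 loops above and 2 below their window at an unadjusted p under 0.05. Among all 11872 loops, 32 were above and 43 below at that limit. The lowest adjusted p among the region's loops in edgeR's fit was 0.25.

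**Figure D4:**
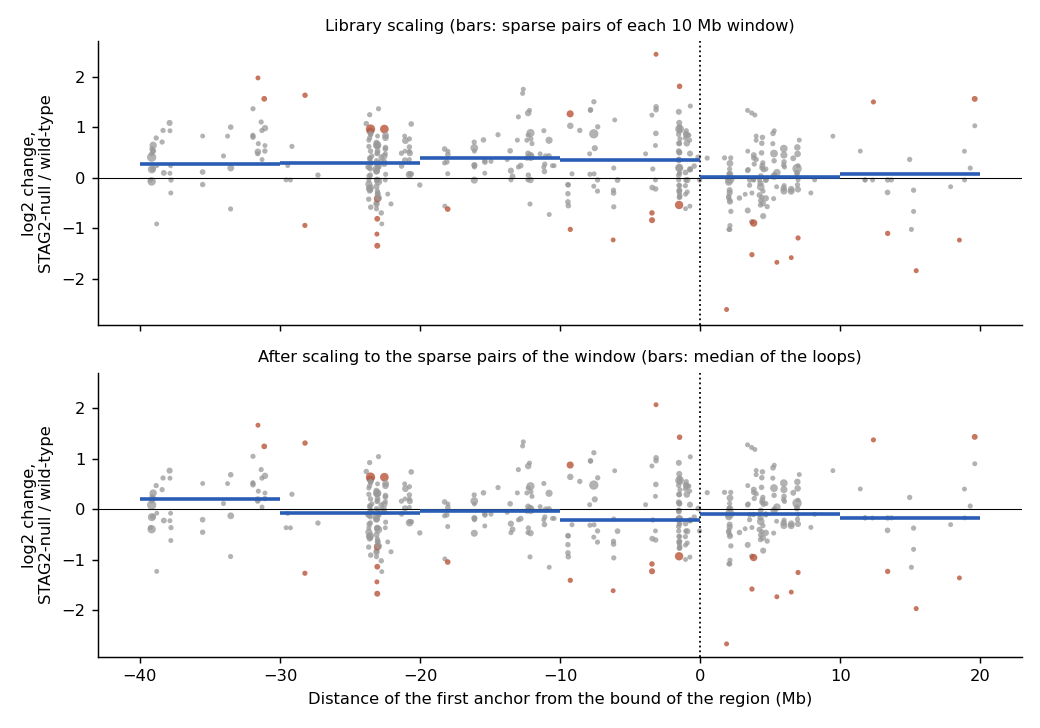
Log2 change of loops with at least 20 PETs, STAG2-null over wild-type (vertical axes), against the distance of the first anchor from the 40 Mb bound in Mb (horizontal axis), with library scaling in the upper panel and scaling by the sparse pairs of the 10 Mb window in the lower panel. The median of the region's loops was 0.32 in the upper panel and -0.03 in the lower one.

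The lowest p against the window belonged to a 93.4-kb loop over FAM231A, a gene name that RefSeq's current list did not hold. It joined chr1:16944872-16951128 to chr1:17032483-17050242 and held 7 and 5 PETs in STAG2-null cells, against 12 and 18 PETs in wild-type cells. Both STAG2-null libraries were below both wild-type libraries, whereas the 16 to 18 Mb step that holds it had the opposite order. The log2 change was -1.35 ± 0.49 (SE) with library scaling and -1.67 ± 0.49 against the window, with an adjusted p of 0.25 in edgeR's quasi-likelihood test. In the authors' deposited table it was the only differential loop of the region stronger in wild-type cells, with an adjusted p of 0.0694.

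Loops beside it shared anchors with it or with each other and are not independent. A 5.03-kb loop from the same first anchor held 9 and 5 PETs in STAG2-null cells, against 14 and 10 PETs in wild-type cells, and its log2 change against the window was -1.14 ± 0.50, or -0.72 without STAG2-null 2. A 72.9-kb loop to the same second anchor held 16 and 18 PETs in STAG2-null cells, against 15 and 29 PETs in wild-type cells, and the groups overlapped. A 47.2-kb loop into the first anchor of that one held 6 and 1 PETs in STAG2-null cells, against 7 and 8 PETs in wild-type cells. These 4 loops were among the 10 with the smallest p for a loop below its window.

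The stretch from 16892095 to 17050242 that holds these loops was delimited after its values were seen. It contained 33 of the 610 loops and 2 of the anchors with the most loops. All pairs inside it summed to 385 and 324 PETs in the STAG2-null libraries, against 318 and 372 PETs in the wild-type libraries, a log2 ratio of shares of 0.09 with the groups overlapping. The rest of the 16 to 18 Mb step had a log2 ratio of 0.30, and the region without the stretch 0.35. Near-identical duplicated sequence is common in this part of the chromosome, so the placing of reads there is uncertain, and its part in the values was not tested.

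Other loops below their window lay apart from each other. A 15.4-kb loop from chr1:38490316-38497971 held 21 and 23 PETs in STAG2-null cells, against 33 and 29 PETs in wild-type cells, with a log2 change against the window of -0.93 ± 0.31. A 19.4-kb loop from chr1:36558891-36566732 held 9 and 7 PETs in STAG2-null cells, against 11 and 17 PETs in wild-type cells, with -1.23 ± 0.46. Both had higher counts in each wild-type library, with edgeR adjusted p-values of 0.431 and 0.544. The remaining 4 loops of this group, from 11778762, 21973729, 30723278 and 33784032, had log2 changes against the window of -1.05 to -1.61. No gene was placed at their anchors in the tables used here.

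The loops above their window included several at named promoters. STK40 encodes a pseudokinase, and a 9.32-kb loop from its promoter anchor held 10 and 8 PETs in STAG2-null cells, against 2 and 1 PETs in wild-type cells. The ratio of summed PETs, scaled by library totals, was 6.20, with an exact 95% interval of 1.81 to 32.9. Its log2 change against the window was 2.07 ± 0.78, with an edgeR adjusted p of 0.544. The same anchor, chr1:36849868-36857650, carried a 9.62-kb loop with 12 and 13 PETs in STAG2-null cells against 3 and 6 PETs in wild-type cells. It also carried a 6.91-kb loop with 15 and 9 PETs in STAG2-null cells against 5 and 4 PETs in wild-type cells. All 3 loops had both STAG2-null libraries higher. Summed over all its pairs, the STK40 anchor held 87 and 82 PETs in STAG2-null cells, against 50 and 61 PETs in wild-type cells, a log2 change against the window of 0.31 ± 0.19.

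RERE encodes a nuclear corepressor of the atrophin family. A 5.70-kb loop from its promoter anchor, chr1:8876111-8879021, held 12 and 16 PETs in STAG2-null cells, against 6 and 3 PETs in wild-type cells. Its log2 change was 1.56 ± 0.54 with library scaling and 1.25 ± 0.54 against the window, with an edgeR adjusted p of 0.616 for the window. The window value was 0.78 without wild-type 2. The sparse pairs of the 8 to 10 Mb step had a log2 ratio of 0.51, above the 0.28 of the 10 Mb window. With windows of 2 Mb the loop's change was 1.02. A 24.2-kb loop to which the authors' deposited table also gives RERE held 10 and 7 PETs in STAG2-null cells, against 2 and 2 PETs in wild-type cells. Both loops had higher counts in each STAG2-null library. Between the outer anchors of these loops, from 8429378 to 8885282, all pairs summed to 331 and 373 PETs in the STAG2-null libraries, against 190 and 250 PETs in the wild-type libraries. The log2 ratio of shares was 0.73, with single-library ratios of 0.57 to 0.90, on 12 of the 610 loops. That stretch was also delimited after its values were seen, and the region without it had a log2 ratio of 0.34.

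EPHA2 encodes a receptor for ephrin-A ligands and had a loop that shared the highest PET count of the region. This 10.3-kb loop held 51 and 40 PETs in STAG2-null cells, against 28 and 17 PETs in wild-type cells. Its log2 change was 0.96 ± 0.29 with library scaling and 0.64 ± 0.29 against the window, with an edgeR adjusted p of 0.636 for the window. Leaving out 1 library moved the window value to between 0.26, without wild-type 2, and 1.10, without wild-type 1, and it was 0.38 without STAG2-null 1. A second loop, from the distal anchor of the first, chr1:16464043-16476560, held 21 and 36 PETs in STAG2-null cells, against 16 and 13 PETs in wild-type cells. Neither overlapped between genotypes. At the EPHA2 promoter anchor itself all pairs summed to 139 and 117 PETs in STAG2-null cells, against 103 and 94 PETs in wild-type cells, a log2 change against the window of 0.14 ± 0.16.

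The loop with the smallest adjusted p of the region in the authors' deposited table joined the SEPN1 promoter anchor, chr1:26122284-26127748, to a site 190 kb away. SEPN1 encodes selenoprotein N, which is needed in muscle. The loop held 5 and 7 PETs in STAG2-null cells, against 0 and 0 PETs in wild-type cells. Against an assumed floor of 3 PETs over the wild-type group, it was 4.13-fold higher in STAG2-null cells, scaled by library totals. The lower exact 95% limit from the counts themselves, without the floor, was 2.87-fold. The adjusted p in the authors' deposited table was 0.0166. It fell under the minimum of 20 PETs, and in edgeR's fit of all high-confidence loops without that minimum its adjusted p was 0.226 with library scaling and 0.565 with window scaling. All pairs at that promoter anchor summed to 44 and 50 PETs in STAG2-null cells, against 29 and 26 PETs in wild-type cells, a log2 change against the window of 0.43 ± 0.25.

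PTP4A2, a membrane-associated tyrosine phosphatase gene, had the other loop with the highest count. Its 6.41-kb loop held 38 and 51 PETs in STAG2-null cells, against 22 and 25 PETs in wild-type cells. The log2 change was 0.87 ± 0.29 with library scaling and 0.48 ± 0.29 against the window. AHDC1, an AT-hook DNA-binding protein gene, had a 206-kb loop. The authors' deposited table also gave that loop GPR3, which it names at a promoter anchor, and WASF2, which it does not. This loop had 21 and 17 PETs in STAG2-null cells, against 9 and 6 PETs in wild-type cells, with a log2 change against the window of 0.85 ± 0.44, or 0.51 without wild-type 2. AGTRAP, a gene for an angiotensin receptor-associated protein, had a 5.42-kb loop with 10 and 13 PETs in STAG2-null cells against 5 and 2 PETs in wild-type cells. None of these loops overlapped between genotypes, and their edgeR adjusted p-values against the window ran from 0.636 to 0.763.

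Further loops fell over PADI1, a peptidylarginine deiminase gene. The 109-kb PADI1 loop held 25 and 52 PETs in STAG2-null cells, against 19 and 19 PETs in wild-type cells, with a log2 change against the window of 0.63 ± 0.31. STAG2-null 2 held more PETs than any other library, and without it the change against the window was 0.08. The 85.7-kb PADI1 loop held 7 and 4 PETs in STAG2-null cells, against 1 and 0 PETs in wild-type cells, a ratio of 11.4 with an exact 95% interval of 1.65 to 489. That interval is wide, so the counts do not fix the size of the difference.

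Some loops above their window had no gene placed at an anchor. A 425-kb loop from chr1:38524032-38531360 held 13 and 13 PETs in STAG2-null cells, against 4 and 3 PETs in wild-type cells, with a log2 change against the window of 1.43 ± 0.58. From the same anchor an 11.2-kb loop held 27 and 52 PETs in STAG2-null cells, against 19 and 20 PETs in wild-type cells, with 0.57 ± 0.31. A 16.1-kb loop from chr1:30713998-30716757 held 23 and 27 PETs in STAG2-null cells, against 9 and 11 PETs in wild-type cells, with 0.88 ± 0.39. Each had both STAG2-null libraries higher, and the edgeR adjusted p-values against the window were 0.616, 0.713 and 0.627.

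A pair of strong loops near the chromosome's end shared an anchor. The 26.1-kb loop from 839056, with 1 PET fewer in all than the EPHA2 and PTP4A2 loops, held 43 and 35 PETs in STAG2-null cells, against 27 and 30 PETs in wild-type cells, with a log2 change of 0.41 ± 0.29 by library and 0.08 ± 0.29 against the window. The 12.1-kb loop from the same anchor held 27 and 26 PETs in STAG2-null cells, against 29 and 25 PETs in wild-type cells, with -0.40 ± 0.31 against the window. The groups overlapped in shares for the second loop and not for the first.

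Loops beside the bound are given for description only. The 3 just inside it, from 39860245, 39955315 and 39971719, held 22, 13 and 11 PETs over the STAG2-null libraries, against 16, 13 and 7 PETs over the wild-type libraries. The 3 just outside, from 40231224, 40249402 and 40496353, held 8, 5 and 15 PETs over the STAG2-null libraries, against 8, 10 and 11 PETs over the wild-type libraries. The loop from 39971719 was the only one of the region whose second anchor lay past 40 Mb.

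Summing all pairs at an anchor gave more PETs than a single loop. Of 1589 anchors of the region with at least 20 PETs, 0 were called as departing from their window in the edgeR test with Benjamini-Hochberg adjustment, against 0% of the 60425 anchors tested. At an unadjusted p under 0.05, 61 were higher and 65 lower, where 3.91% and 3.7% of all anchors were. DESeq2 called 0, with 7 anchors above and 5 below their window at an unadjusted p under 0.05. Over all 60425 anchors it had 274 above and 210 below at that limit. Calls with a library left out rest on 1 library in a group, so nothing is read from them.

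The anchors with the smallest p in each direction lay in separate places. Of the 5 higher ones the largest log2 change against the window was 1.87 ± 0.54, at chr1:25398770-25400343, with 20 and 13 PETs in STAG2-null cells against 4 and 3 PETs in wild-type cells. The anchor at chr1:28685166-28687192 held 23 and 23 PETs in STAG2-null cells, against 4 and 8 PETs in wild-type cells, with 1.58 ± 0.43. A pair of anchors with 0.68 ± 0.20 and 0.70 ± 0.22 lay at 8657249 and 8719638, inside the RERE stretch, and held 73 and 100, and 59 and 92 PETs in STAG2-null cells, against 44 and 48, and 30 and 49 PETs in wild-type cells. Their 10 Mb window had a sparse-pair log2 ratio of 0.28, below the 0.51 of the 8 to 10 Mb step around this pair. Among lower anchors the smallest p was at chr1:16952005-16954057, in the FAM231A stretch, with 40 and 42 PETs in STAG2-null cells against 65 and 57 PETs in wild-type cells and a log2 change of -0.81 ± 0.22. Its edgeR adjusted p was 0.233. Each of these anchors separated the libraries by genotype. The remaining higher anchor, at 33920537, had 0.90 ± 0.28, and the remaining 4 lower ones had -0.89 to -1.68.

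The 8 anchors that carried most loops had log2 changes against their windows of -0.29 to 0.27. The 610 loops used 498 distinct anchors, of which 248 occurred in 1 loop only. The anchor with most, 19, at chr1:39042646-39056507, summed over all its pairs to 211 and 258 PETs in STAG2-null cells, against 173 and 188 PETs in wild-type cells, a log2 change against the window of 0.08 ± 0.13. The next, with 17 loops, at chr1:38501589-38517534, held 245 and 269 PETs in STAG2-null cells, against 227 and 223 PETs in wild-type cells, with -0.11 ± 0.12. Of the 8 anchors with at least 13 loops, the lowest was the FAM231A anchor at chr1:17032483-17050242. That anchor had 197 and 167 PETs in STAG2-null cells, against 169 and 209 PETs in wild-type cells, with -0.29 ± 0.13 and an edgeR adjusted p of 0.607.

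A named gene was placed at an anchor only where the authors' deposited table left 1 anchor possible, which gave 9 promoter anchors with 1 gene each. Against their windows, 8 had positive log2 changes, from 0.14 at EPHA2 to 0.62 ± 0.27 at RERE, and AL590822.2 had -0.21 ± 0.24. These anchors belong to loops the authors had called differential between the genotypes, so their direction is not independent evidence. COL16A1, the gene of a fibril-associated collagen, had 102 and 92 PETs in STAG2-null cells, against 54 and 65 PETs in wild-type cells, a log2 change against the window of 0.41 ± 0.18. The adjusted p-values of all 9 in edgeR's test were 0.594 to 0.879.

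In the authors' deposited table of differential loops, 25 of the 610 loops were listed, or 4.10%, against 2.87% of all high-confidence loops. Adjusted p-values of these 25 loops in that table, from the authors' own test, ran from 0.0166 to 0.0973. Over all its differential loops they reached 0.0998. The list thus extends past the adjusted p limit set for the edgeR and DESeq2 calls above, so its counts and those calls are not at the same limit. Of the 25, the authors' deposited table gave 24 as stronger in STAG2-null cells and 1 in wild-type cells. The share of all high-confidence loops that the authors' deposited table gave as stronger in STAG2-null cells was 1.54%. Outside the region, 52.2% of the differential loops of the authors' deposited table were stronger in STAG2-null cells. For the 25 loops the authors' deposited table flagged H3K27ac, a mark of active promoters and enhancers, at an anchor of 24 (96.0%, against 81.4% of the differential loops outside the region). It flagged CTCF at 14 (56.0%, against 73.9% outside), a promoter at 14 (56.0%, against 48.5% outside) and FLI1 at 6 (24.0%, against 26.1% outside), in the authors' deposited table. These shares compare loops nearly all stronger in STAG2-null cells with outside loops split between directions, so direction and place cannot be told apart. From 40 to 60 Mb the authors' deposited table held 7 differential loops, 3 stronger in STAG2-null cells and 4 in wild-type cells.

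Window scaling lowered the log2 changes of these loops. By construction it takes the excess of the surroundings from any loop of the region. In the present counts all 25 separated the libraries by genotype. The 21 with at least 20 PETs that were higher in STAG2-null cells had a median log2 change of 1.30 with library scaling and of 0.92 with window scaling. Of the 22 with at least 20 PETs, all 22 had an unadjusted p under 0.05 in edgeR's fit with library scaling, and 9 did with window scaling. The loops were picked by this contrast in these libraries, so these counts are no independent evidence.

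**Figure D5:**
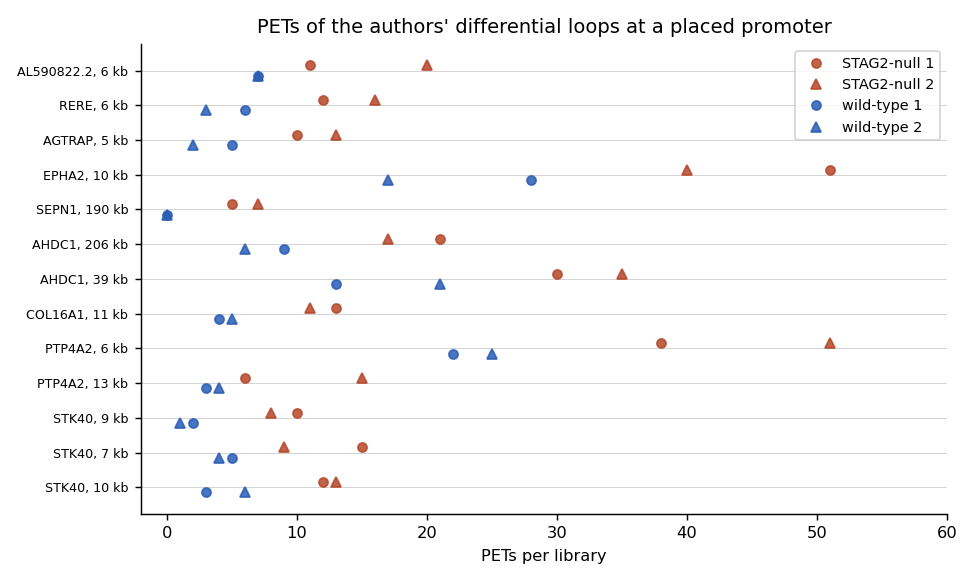
PETs per library (horizontal axis) of the 13 loops of the region that the authors' deposited table lists as differential and that have a placed promoter at an anchor, labelled by that gene and by length in kb. STAG2-null libraries are drawn above wild-type libraries in each row, and in all 13 rows both STAG2-null libraries held more PETs than both wild-type libraries.

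Few genes of wider interest could be followed, because genes were placed only through the differential loops of the authors' deposited table. That table named 20 genes in the region, of which 15 were current symbols in RefSeq's GRCh38.p14 list, 3 were older symbols and 2 were not matched. Of 17 chromatin regulators of 1p only RERE was named, of 22 development and signalling genes only EPHA2, and of 15 translation, metabolism and housekeeping genes only SEPN1. Of 14 candidate tumour suppressors of 1p, 0 were named. These lists were chosen with earlier results of these data known, and absence from the table says nothing of a gene's contacts.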

How the data were processed

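SMC1 HiChIP of A673 cells was analysed in 2 STAG2-null and 2 wild-type libraries, grouped by the genotype in the labels. The authors deposited, for each library, a count of PETs and a p-value per anchor pair, and a table of high-confidence loops with a count per library, per the file headers. Per the submitters' processing notes, HiC-Pro and hg19 were used, with no version named. The loop caller's settings are, in the sources used here, not given. The authors' deposited table of differential loops holds a log2 fold change, wild-type over mutant, and an adjusted p-value, per the file headers. The base of 2 was settled by setting the values against the counts. Values per library come from the files of each library, and the loop table's counts per genotype summed to the same in all 22680 rows.

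Shares, steps and the edge were computed with Python 3.11.15, pandas 2.3.3 and scipy 1.17.1, placing a pair by the start of its first anchor. Pairs and anchors with at least 20 PETs were tested across the genome with edgeR 4.0.16 (R 4.3.3) and genotype as the only term, with TMM factors (1.01, 1.05, 0.988 and 0.950 for loops, in the order STAG2-null 1 and 2, wild-type 1 and 2). Window scaling used offsets from sparse pairs of the 10 Mb window. DESeq2 1.42.0, other filters and scalings, each library left out and a replicate block were alternatives. On simulated counts for 11872 loops with 200 changed 4-fold, the loop fit recovered 47%. The simulation gave every loop the same assumed dispersion, not fitted to these data, and no regional shift. Libraries of a group differed beyond sampling noise (chi-square per degree of freedom 1.18 for the STAG2-null pair and 1.07 for the wild-type pair), so none was counted as a duplicate. Same-numbered libraries did not deviate together (correlation 0.002), so numbers were not taken as pairs.

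Loops and anchors were named by rule: the 10 loops and 5 anchors with the smallest window-scaled p in each direction, the 6 loops with most PETs, the 3 on each side of 40 Mb, up to 10 authors' differential loops by adjusted p, and genes of 4 lists. Others were chosen after their values were seen, among them the further differential loops, the 2 stretches, the promoter anchors and the anchors with most loops. The region, its loops and the lists were chosen with earlier results of these data known. Some loops that the rule names are not reported here.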

Additional observations from a re-analysis of the deposited data

How the results depend on the processing

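The log2 ratio of the region, 0.35, was 0.33 with sparse pairs, with high-confidence loops, with pairs of at least 200 kb, and against chromosome 12, and 0.34 to 0.35 when each library was left out. The step at the bound, 0.33, was 0.29 with sparse pairs, 0.39 with high-confidence loops, 0.26 with pairs of at least 200 kb, and 0.31 to 0.35 when each library was left out. With the bound moved to the fitted edge, chosen after seeing the data, both were 0.35. The edge, 41.5 Mb, was at 41 Mb with 1 Mb steps, and at 41 to 41.5 Mb when each library was left out. The median log2 change of the region's loops, 0.32, was 0.28 at a minimum of 10 PETs, 0.41 at 40 PETs, and 0.31 to 0.34 when each library was left out. It changed sign to -0.034 with window scaling, which by construction removes the excess of the surroundings. Called loops with library scaling numbered 0 to 1 when each library was left out, and called anchors 0 to 3, both highest without STAG2-null 1. Those fits leave 1 library in a group, so nothing is read from their calls. Without STAG2-null 1, loops and anchors outside the region were called too. Scaling by whole chromosomes leaves the excess of the region in place. At an edgeR adjusted p under 0.05 it gave 7 higher and 0 lower of the region's 1589 anchors. Over all 60425 anchors, 51 were higher and 34 lower.

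Same-numbered libraries did not deviate together, and with the replicate block the ratio was 0.35, the step 0.33 and the calls 0, while number 1 alone placed the edge at 41 Mb. For the 20 loops named by window-scaled p, all 228 values under other settings kept their direction, although their size moved. Where 2 libraries per group remained, they stayed short of an adjusted p of 0.05. The loops were picked for small p in these same libraries, so the kept direction is no independent evidence.

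Depth limits single loops. A loop of the region held a median of 19 PETs, and 307 of the 610 were under the 20 PETs needed for the loop fit. Among all 11872 fitted pairs that fit recovered 47% of simulated 4-fold changes, at an assumed dispersion.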
